A study of Mus musculus with 6 samples.

Results

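Glutathione transferases join the tripeptide glutathione to reactive or oxidised molecules, and in liver they handle drug metabolites, products of lipid peroxidation and steroid or bile pigments that they bind without turning over. The cytosolic enzymes work as dimers and fall into classes that mark gene families, among them alpha (Gsta), mu (Gstm), pi (Gstp) and theta (Gstt). The conjugates leave the hepatocyte through ABC transporters and are trimmed to mercapturates, and many of the genes are known to be induced through the transcription factor Nrf2 and the nuclear receptors CAR and PXR. The 10 genes described here were taken by name, with earlier results of these data known, so counts of calls among them are not an independent test. They were Gsta2, Gsta3 and Gsta4 of the alpha class, Gstm1, Gstm2, Gstm3, Gstm4 and Gstm6 of the mu class, Gstp1 and Gstt3. Each was read through its brightest probe set (by its mean of the 6 arrays) among those annotated to exactly 1 symbol, and all 10 were measured, out of 18193 genes tested.

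The livers came from CYP2D6-humanized mice, C57BL/6 animals with a human CYP2D6 transgene. Every group carried the transgene, no group lacked it, and the sources used here give neither the sequence that drives it nor the animals' ages or the hour of collection. There were 3 groups with 2 biological replicates and 1 array each, taken before pregnancy, on day 21 of gestation, and on day 7 after birth (called postpartum here). Values are log2 intensities after RMA, the usual background correction, normalization and summary for these arrays. Array medians lay between 5.09 and 5.15 and replicates correlated across genes at 0.994 to 0.997. All 10 hepatocyte markers measured had means at or above that of the median gene (6.38). The number of arrays limits the precision. The exact permutation test of 2 arrays against 2 cannot give a two-sided p below 0.333, so genes were tested with limma over all genes, and "called" means a Benjamini-Hochberg adjusted p under 0.05. The labels name the replicates biological and say no more, so p-values measure the spread between these livers only.

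All of the transferases described here were bright, from the 68.9th percentile of genes for Gstm6 to the 99.5th for Gstp1. On day 21 of pregnancy 4 of the 10 rose against pre-pregnancy (Gstm3, Gstt3, Gstp1 and Gstm2) and 3 fell (Gsta4, Gsta3 and Gstm6), where 5.46% of all genes were called higher and 8.25% lower. Postpartum, 6 of the 10 rose against day 21 (Gstm4, Gsta2, Gstm6, Gstm3, Gsta4 and Gstm1) and 0 fell, where 2.41% of genes were called higher and 0.879% lower. Postpartum against pre-pregnancy, 7 of the 10 rose (Gstm3, Gstm4, Gsta2, Gstm2, Gstt3, Gstm1 and Gstp1) and 0 fell, beside 3.91% higher and 3.75% lower. At an unadjusted p under 0.05 there were 9 of the 10 on day 21, in both directions, beside 31% of all genes, 8 postpartum against day 21 beside 20.7%, and 8 postpartum against pre-pregnancy beside 22.9%, all of those in the postpartum comparisons being higher. The median log2 difference of the 10 was 0.31, 0.59 and 0.90 in the 3 comparisons in that order, and that of all genes 0.045, -0.01 and 0.025. Each pair of comparisons shares a group of arrays, so their values are not independent of each other.

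The arrays of the groups did not overlap for 9 of the 10 on day 21 against pre-pregnancy (59.6% of all genes), for 8 of the 10 postpartum against day 21 (50.1%) and for 9 of the 10 postpartum against pre-pregnancy (52.6%). The counts rest on few livers. Left out in turn, the arrays gave 2 to 4 rises and 0 to 2 falls on day 21, 1 to 4 rises postpartum against day 21 and 3 to 7 postpartum against pre-pregnancy. The fewest were found without either pre-pregnancy array for day 21 (2 rises and 0 falls each), without either postpartum array for postpartum against day 21 (1 each), and without pre-pregnancy replicate 1 for postpartum against pre-pregnancy (3). Without pregnancy replicate 1 or 2 there was 1 fall on day 21, and without pregnancy replicate 2 there were 2 rises postpartum against day 21. Normalizing the arrays by quantiles once more turned the calls over all genes from 993 higher and 1501 lower to 1284 and 1150 on day 21, and from 439 and 160 to 286 and 189 postpartum against day 21; among the 10 transferases it gave 5 rises and 2 falls, then 5 rises and 0 falls.

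**Figure D1:**
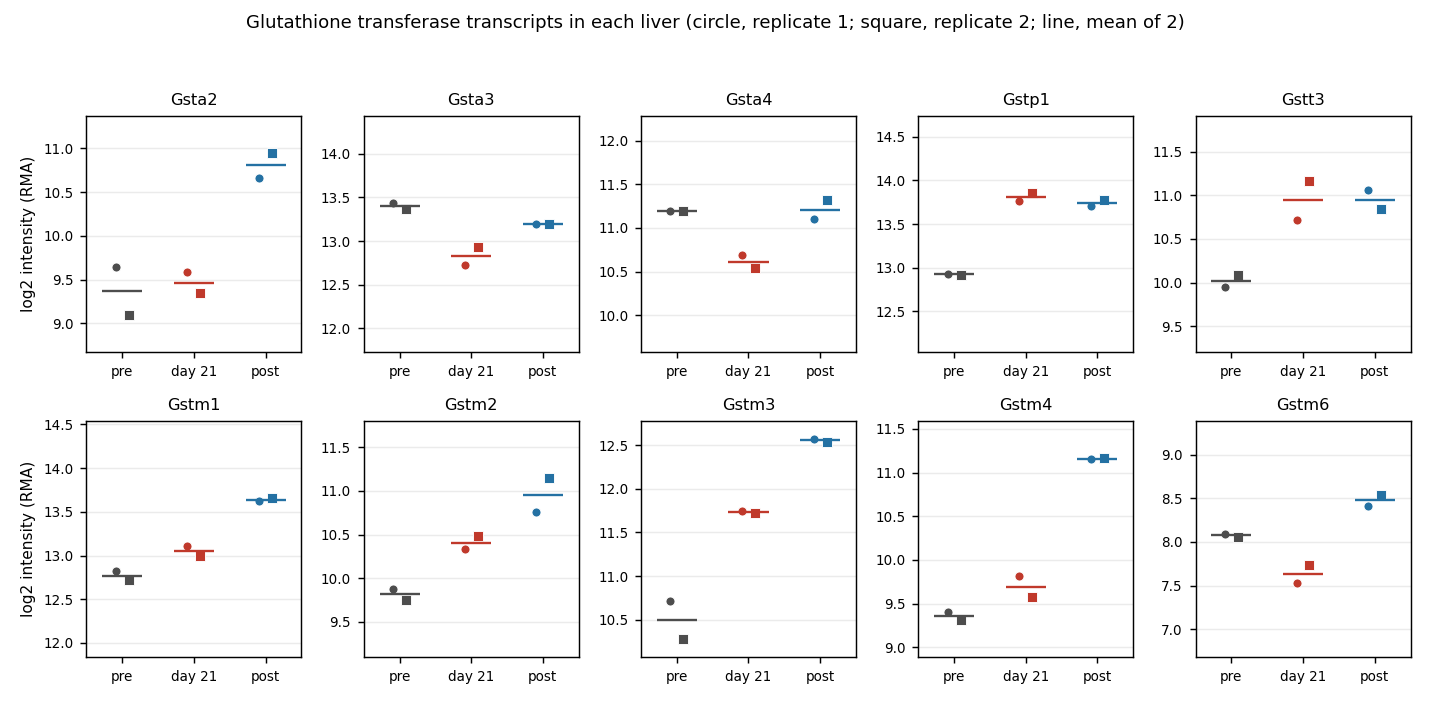
Log2 intensity (vertical axes, each spanning the same number of log2 units) of the 10 transferase genes in each of the 6 livers, by stage on the horizontal axes; circles are replicate 1, squares replicate 2 and lines the mean of 2. Gstp1 and Gstt3 are high on day 21 and postpartum alike, Gstm3 steps up at each stage, Gstm4 and Gsta2 are high postpartum (11.15 and 11.17, and 10.66 and 10.95), and Gsta3, Gsta4 and Gstm6 are lowest on day 21.

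Gstp1 encodes a pi-class enzyme, in mouse liver known as a male-biased transcript. It stood at 12.93 and 12.92 before pregnancy, at 13.76 and 13.85 on day 21 and at 13.71 and 13.78 postpartum. Both arrays of the later stages lay above both pre-pregnancy arrays, while day 21 and postpartum overlapped. It rose 1.84-fold on day 21 (log2 difference 0.88 ± 0.0999 SE, limma adjusted p = 0.0028), a call that held in all 15 alternatives (highest adjusted p = 0.038). Postpartum against pre-pregnancy it rose 1.77-fold (0.82 ± 0.0999, adjusted p = 0.0063), a call lost without pre-pregnancy replicate 1 (0.0757; 0.000215 to 0.0757 over the alternatives). Postpartum against day 21 it was not called, with a log2 difference of -0.06 and a 95% interval from -0.29 to 0.17.

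The window from 250 bases before to 50 after the start site of Gstp1 is shown because it holds a match to the AP-1 element, TGANTCA with N for any base, in capitals and starting 74 bases before the start site. Among the 14 windows of 9 members it was the only one with a match to it on either strand; 7.81% of the 32851 windows in the table hold one. The sequence is RefSeq's, build GRCm38.p6, chr19:4037863-4038162, minus strand.
Gstp1: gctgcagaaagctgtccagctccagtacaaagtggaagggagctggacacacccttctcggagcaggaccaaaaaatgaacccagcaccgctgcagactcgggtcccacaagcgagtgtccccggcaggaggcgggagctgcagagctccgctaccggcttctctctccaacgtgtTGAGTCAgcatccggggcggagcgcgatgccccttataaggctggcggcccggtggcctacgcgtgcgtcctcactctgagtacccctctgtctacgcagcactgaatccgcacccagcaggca
A match is a description of the letters only.

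Gstt3 belongs to the theta class, whose enzymes act on small halogenated compounds and sulfate esters. Its levels were 9.95 and 10.09 before pregnancy, 10.72 and 11.16 on day 21, and 11.06 and 10.84 postpartum. As for Gstp1, the pre-pregnancy arrays were the low ones and the later stages overlapped. It rose 1.89-fold on day 21 (0.92 ± 0.161, adjusted p = 0.0119) and 1.91-fold postpartum against pre-pregnancy (0.93 ± 0.161, adjusted p = 0.0174). The day 21 call was lost without pre-pregnancy replicate 1 or 2 (adjusted p = 0.111 and 0.0578; 0.00386 to 0.111 over the alternatives). The postpartum call was lost without either pre-pregnancy or either postpartum array (0.0656 to 0.16; 0.00578 to 0.16 over the alternatives). Between postpartum and day 21 the log2 difference was 0.01, with a 95% interval from -0.36 to 0.38.

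The 5 mu-class genes lie together on chromosome 3 with Gstm5 and Gstm7, and their transcripts are alike enough that an array probe set can read more than 1 of them. Gstm3 had the largest differences of the 10 against pre-pregnancy. Its levels were 10.71 and 10.28 before pregnancy, 11.74 and 11.72 on day 21, and 12.57 and 12.54 postpartum. The 3 stages were fully separated, each above the one before. It rose 2.35-fold on day 21 (log2 difference 1.24 ± 0.145, adjusted p = 0.00308) and 4.17-fold postpartum against pre-pregnancy (2.06 ± 0.145, adjusted p = 0.00138), and both calls held in all 15 alternatives (highest adjusted p = 0.0186 and 0.0145). The step from day 21 to postpartum was 1.77-fold (0.83 ± 0.145, adjusted p = 0.0298), and that call was lost with 1 pregnancy array removed (0.068 and 0.0971) or 1 postpartum array (0.137 and 0.132; 0.0055 to 0.137 over the alternatives). These values come from a probe set whose suffix marks probes that may read related transcripts. The other, dimmer probe set of Gstm3 carries no such mark and gave log2 differences of 1.08 on day 21, 1.16 from day 21 to postpartum (adjusted p = 0.0058 over all probe sets) and 2.23 postpartum against pre-pregnancy.

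Gstm1, the main constitutive mu-class enzyme of mouse liver, is the one of the 10 with most probe sets, 4 in all. On the brightest, whose suffix marks shared probes, it stood at 12.82 and 12.72 before pregnancy, 13.11 and 13.00 on day 21, and 13.62 and 13.66 postpartum. The stages did not overlap and followed the order of Gstm3 with smaller steps. On day 21 the log2 difference was 0.29 ± 0.103, which was not called (adjusted p = 0.108, 0.0291 to 0.3 over the alternatives). It rose 1.5-fold from day 21 to postpartum (0.59 ± 0.103, adjusted p = 0.0298), a call that did not survive leaving out any 1 array but pregnancy replicate 1 (0.0704 to 0.153; 0.00239 to 0.153 over the alternatives). Postpartum against pre-pregnancy it rose 1.83-fold (0.87 ± 0.103, adjusted p = 0.00597), lost without pre-pregnancy replicate 1 (0.0587; 0.000237 to 0.0587 over the alternatives). The 4 probe sets gave postpartum against pre-pregnancy differences of 0.86 to 1.07, each called, and on day 21 differences of 0.21 to 0.42, of which only the difference of 0.42 was called (adjusted p = 0.0481 over all probe sets).

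**Figure D2:**
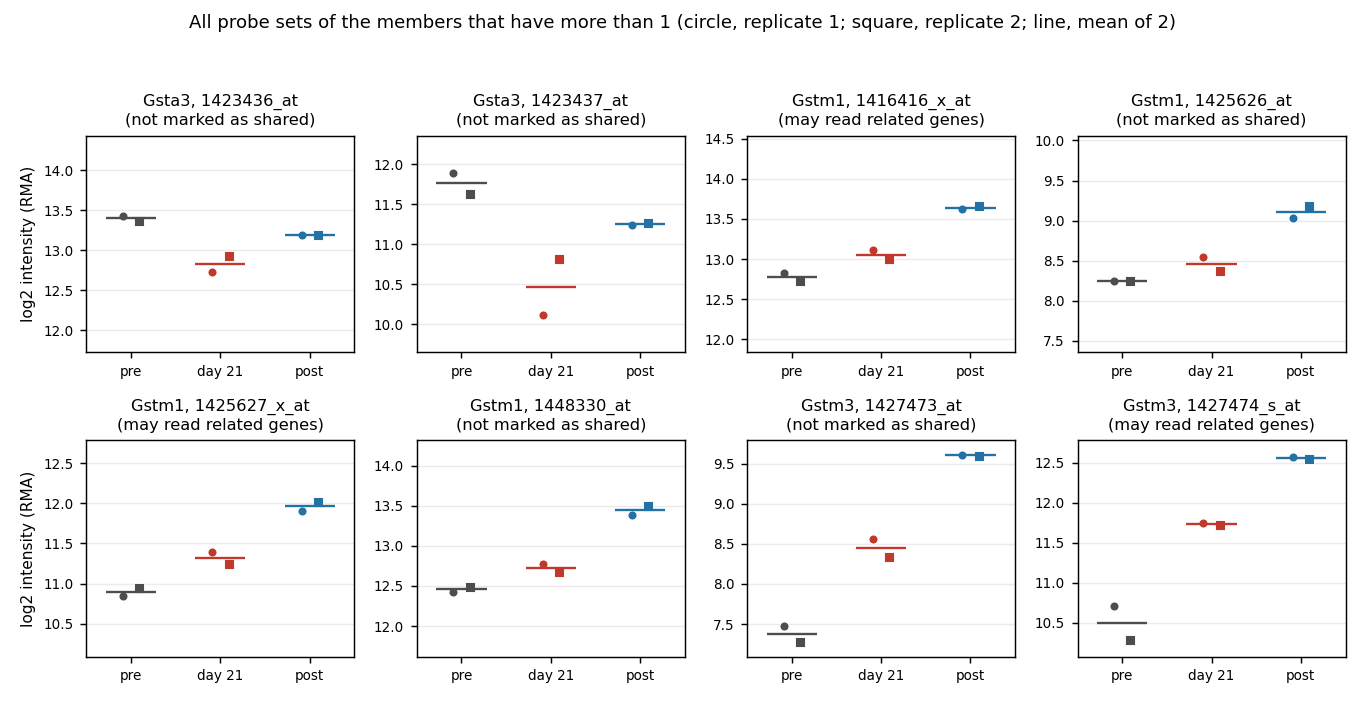
Log2 intensity (vertical axes) by stage (horizontal axes) for every probe set of Gsta3, Gstm1 and Gstm3, with circles for replicate 1, squares for replicate 2 and lines for the mean of 2; panel titles say whether the suffix marks probes that may read related genes. The 4 Gstm1 and the 2 Gstm3 probe sets keep the order pre-pregnancy, day 21, postpartum, and both Gsta3 probe sets are lowest on day 21.

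The promoter windows of Gstm1 and Gstm3 are shown because they share the longest run among the windows of different members, 16 bases in capitals, TGAGAAGACCACAGCA, starting 20 and 11 bases into the transcripts. The next longest were 14 bases, between Gstm2 and Gstm3, and 13 bases, between Gstm3 and Gstm6, and the 25 pairs of genes from different families shared at most 11. RefSeq, build GRCm38.p6, gives chr3:108017769-108018068 for the downstream of the 2 listed Gstm1 starts and chr3:107969125-107969424 for Gstm3, both on the minus strand.
Gstm1: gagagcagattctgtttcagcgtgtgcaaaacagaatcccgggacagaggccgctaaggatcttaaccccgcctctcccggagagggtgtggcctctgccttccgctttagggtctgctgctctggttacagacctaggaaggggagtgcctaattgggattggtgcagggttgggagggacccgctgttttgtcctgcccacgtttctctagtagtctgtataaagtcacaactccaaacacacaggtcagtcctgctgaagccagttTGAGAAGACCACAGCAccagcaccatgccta
Gstm3: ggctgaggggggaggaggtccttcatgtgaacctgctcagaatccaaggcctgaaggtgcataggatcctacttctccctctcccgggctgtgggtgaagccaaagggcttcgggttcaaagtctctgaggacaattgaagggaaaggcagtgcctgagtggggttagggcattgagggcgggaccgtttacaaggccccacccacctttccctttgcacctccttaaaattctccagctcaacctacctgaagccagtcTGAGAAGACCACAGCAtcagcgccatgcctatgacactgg
None of the Gstm1, Gstm2, Gstm3 and Gstm4 windows matched the AP-1 element (0), the antioxidant response element core described with Gsta3, or the STAT element TTCNNNGAA, which 8.3% of all windows hold and which was found in 1 of the Gstm6 windows. The xenobiotic response element core GCGTG, held by 32.4% of all windows, was found for Gsta2, Gstm1 and Gstp1. The TATA box TATAAA, held by 13.6%, was found for Gsta2 and Gstm1. In the Gstm1 window shown it starts 30 bases before the start site.

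Gstm4 had the largest step of the 10 from day 21 to postpartum. Its levels were 9.40 and 9.31 before pregnancy, 9.81 and 9.57 on day 21, and 11.15 and 11.17 postpartum. The postpartum arrays stood far above the others, and the pre-pregnancy arrays lay just below those of day 21. It rose 2.77-fold from day 21 to postpartum (1.47 ± 0.116, adjusted p = 0.00244) and 3.49-fold against pre-pregnancy (1.81 ± 0.116, adjusted p = 0.00112), and both calls held in all 15 alternatives (highest adjusted p = 0.0227 and 0.0235). The day 21 difference of 0.34 ± 0.116 was not called (adjusted p = 0.0953), though it was after a further quantile normalization (0.0389; 0.0389 to 0.291 over the alternatives).

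Gstm2, another mu-class gene, stood at 9.88 and 9.75 before pregnancy, 10.33 and 10.48 on day 21, and 10.76 and 11.15 postpartum. Its stages were separated in the same order as those of Gstm3. It rose 1.51-fold on day 21 (0.59 ± 0.146, adjusted p = 0.0362), a call lost when any pre-pregnancy or pregnancy array was left out (0.0642 to 0.157; 0.0182 to 0.157 over the alternatives). It rose 2.20-fold postpartum against pre-pregnancy (1.14 ± 0.146, adjusted p = 0.00753), a call lost when either pre-pregnancy array was removed (0.0796 and 0.0567; 0.00146 to 0.0796 over the alternatives). From day 21 to postpartum its difference of 0.55 was not called (adjusted p = 0.0904).

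Gstm6 differed from the other mu-class genes in being lower on day 21. Its levels were 8.09 and 8.06 before pregnancy, 7.53 and 7.74 on day 21, and 8.41 and 8.54 postpartum. The day 21 arrays were the lowest and the postpartum arrays the highest, with no overlap. It fell 1.36-fold on day 21 (log2 difference -0.44 ± 0.115, adjusted p = 0.0423), a call lost when any 1 of the 6 arrays was left out (0.0521 to 0.198; 0.0324 to 0.198 over the alternatives). It rose 1.79-fold from day 21 to postpartum (0.84 ± 0.115, adjusted p = 0.0133), lost without either postpartum array (0.0609 and 0.0855; 0.00565 to 0.0855 over the alternatives). Postpartum against pre-pregnancy the difference of 0.40 was not called (adjusted p = 0.0775).

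The alpha-class genes divided in their patterns. Gsta2 encodes an alpha-class subunit known for its induction by antioxidants. It stood at 9.64 and 9.09 before pregnancy, 9.59 and 9.34 on day 21, and 10.66 and 10.95 postpartum. The first 2 stages overlapped, and both postpartum arrays were above all others. It rose 2.53-fold from day 21 to postpartum (1.34 ± 0.195, adjusted p = 0.0157), a call lost without pregnancy replicate 2 (0.0671) or postpartum replicate 1 or 2 (0.0588 and 0.0964; 0.0072 to 0.0964 over the alternatives). Against pre-pregnancy it rose 2.71-fold (1.44 ± 0.195, adjusted p = 0.00878), lost without postpartum replicate 2 (0.0586; 0.0036 to 0.0586 over the alternatives). On day 21 its difference was 0.10, with a 95% interval from -0.35 to 0.55.

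Gsta3 encodes the alpha-class enzyme that conjugates the epoxide of aflatoxin in mouse liver. It stood at 13.43 and 13.37 before pregnancy, 12.73 and 12.93 on day 21, and 13.19 in both postpartum livers. Day 21 was lowest and pre-pregnancy highest, without overlap. It fell 1.49-fold on day 21 (log2 difference -0.57 ± 0.109, adjusted p = 0.016), a call lost when either pre-pregnancy array was removed (0.12 and 0.0691) or when pregnancy replicate 1 was (0.0525; 0.00178 to 0.12 over the alternatives). On its dimmer probe set the difference was -1.295 (adjusted p = 0.00922 over all probe sets), so the size of the fall is not settled. The rise from day 21 to postpartum was not called on either probe set (0.36 and 0.79, adjusted p = 0.123 and 0.0982), though a trended robust variance called it on the brighter (0.035; 0.035 to 0.331 over the alternatives), and neither was the difference between postpartum and pre-pregnancy (-0.21, adjusted p = 0.31).

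The Gsta3 window is shown because it holds the antioxidant response element core as TGACNNNGC, in capitals and starting 121 bases before the start site. It was the only one of the 14 windows of 9 members with this form on either strand. Of all windows, 12.4% hold it. Other forms of the core were not searched, and the Gstp1 window's TGAGTCAgc has G in place of the C. RefSeq gives the Gsta3 window on build GRCm38.p6 as chr1:21240335-21240634, plus strand.
Gsta3: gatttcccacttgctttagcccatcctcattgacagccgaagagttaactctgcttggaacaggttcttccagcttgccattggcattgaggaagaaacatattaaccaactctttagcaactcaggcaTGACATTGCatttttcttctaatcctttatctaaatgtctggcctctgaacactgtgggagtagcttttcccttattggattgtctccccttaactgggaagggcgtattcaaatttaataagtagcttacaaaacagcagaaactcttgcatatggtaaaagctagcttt
The elements known from rodent alpha-class genes lie further upstream than these windows reach, and no match says only that the letters are not in the window.

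Gsta4 encodes the alpha-class enzyme that clears hydroxynonenal, an aldehyde formed when lipids are oxidised. Its levels were 11.19 in both pre-pregnancy livers, 10.69 and 10.54 on day 21, and 11.10 and 11.32 postpartum. Day 21 was below the other stages, which overlapped. It fell 1.49-fold on day 21 (log2 difference -0.58 ± 0.117, adjusted p = 0.0197), a call lost when either pre-pregnancy array was removed (0.125 and 0.088) or when pregnancy replicate 2 was (0.0815; 0.00684 to 0.125 over the alternatives). It rose 1.51-fold from day 21 to postpartum (0.60 ± 0.117, adjusted p = 0.0406), a call lost when any 1 of the 6 arrays was left out (0.0591 to 0.201; 0.0139 to 0.201 over the alternatives). Postpartum and pre-pregnancy differed by 0.02, with a 95% interval from -0.25 to 0.29.

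**Figure D3:**
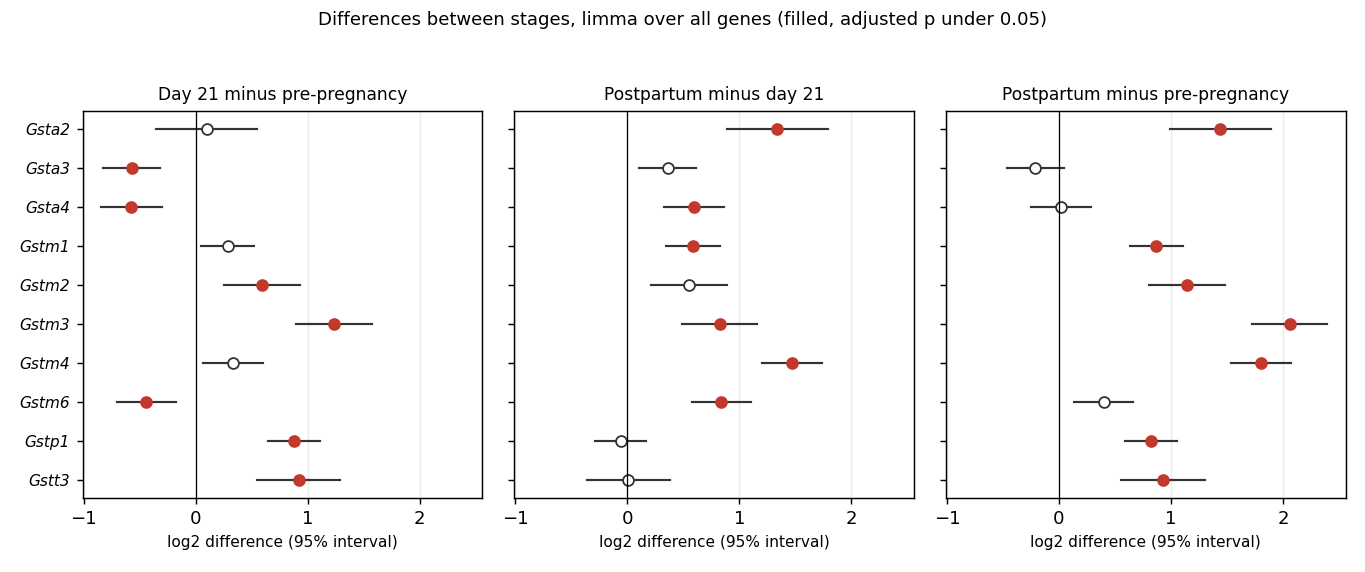
Log2 differences (horizontal axes) of the 10 transferase genes (vertical axis) in the 3 comparisons, with 95% intervals from limma; filled points are called (adjusted p under 0.05). The left panel has 4 called points above 0 and 3 below, the middle panel 6 above and the right panel 7 above, with none (0) called below in the latter pair.

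Of 18 other transferase genes measured of 22 listed (other cytosolic classes, the microsomal Mgst genes and related proteins), 1 rose and 2 fell on day 21, 1 rose and 0 fell postpartum against day 21, and 2 rose and 2 fell postpartum against pre-pregnancy. Of all genes, 5.46% were called higher and 8.25% lower on day 21. Postpartum these shares were 2.41% and 0.879% against day 21, and 3.91% and 3.75% against pre-pregnancy. The counts of the lists that follow, cell type markers included, are to be read beside the same shares. The microsomal enzyme gene Mgst3 stood at 10.36 and 9.91 before pregnancy, 9.04 and 8.61 on day 21, and 10.21 and 10.29 postpartum. Its day 21 arrays were the low ones: it fell by 1.31 on the log2 scale (SE 0.185, adjusted p = 0.00596), lost without pre-pregnancy replicate 1, and rose by 1.43 ± 0.185 afterwards (adjusted p = 0.0116), lost without either postpartum array. Averaged over all its probe sets, these differences were -0.65 and 0.71. Gstcd, which carries a transferase-like domain, fell by 0.72 on day 21 (adjusted p = 0.00781), lost without pre-pregnancy replicate 1. In the mu cluster, Gstm5 rose by 0.48 ± 0.111 on day 21 and by 0.54 postpartum against pre-pregnancy (adjusted p = 0.029 for both), and Gstm7, named after its values were seen, rose by 0.50 ± 0.099 in the latter (adjusted p = 0.0264). Gstz1, the zeta-class enzyme of tyrosine breakdown, and Gstcd were the genes that fell there (both adjusted p = 0.0495), and Gstk1 was not called on day 21 (-0.37, adjusted p = 0.0778). Each of these calls on Gstm5, Gstm7, Gstz1 and Gstcd was lost with at least 1 array left out. That of Gstm7 was also lost on the mean of its probe sets (0.30), that of Gstz1 also with a further quantile normalization, median centring or only the groups compared, and that of Gstcd postpartum also with median centring, a trended robust variance or only the groups compared. Over the arrays left out, each of the list's counts above went down to 0. Gstp3, of the pi class as Gstp1 is, had array values from 13.36 to 13.67 and was not called in any comparison. Neither were Gstt1, Gstt2 and Gstt4, of the theta class as Gstt3 is.

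The supply of glutathione was represented by 16 measured genes of synthesis and recycling. On day 21, 3 rose and 0 fell: Ggct, which splits gamma-glutamyl peptides (1.86 ± 0.247, adjusted p = 0.00457), Cbs, the entry to cysteine from homocysteine (1.22 ± 0.177, adjusted p = 0.0067) and Gss, glutathione synthetase (0.62 ± 0.134, adjusted p = 0.0243). The Cbs call held in all 15 alternatives, that of Ggct was lost without pre-pregnancy replicate 1, and that of Gss without any 1 of the pre-pregnancy or pregnancy arrays. Without pre-pregnancy replicate 1 the list had 1 rise. Averaged over their probe sets, Ggct differed by 0.80 and Gss by 0.39. The rate-limiting ligase subunits Gclc (-0.16) and Gclm (-0.18) were not called on day 21, nor at other stages. Postpartum against day 21, Gsr, glutathione reductase, was the 1 gene that rose (0.53 ± 0.102, adjusted p = 0.0387), a call lost when any 1 array was left out, after a further quantile normalization, with only the groups compared, and on the mean of its probe sets (0.26). Postpartum against pre-pregnancy Cbs, Ggct and the NADPH-forming dehydrogenase gene Pgd rose and Chac1, a glutathione-degrading enzyme, fell; of these, only the Cbs call held with every array left out in turn.

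Genes for the further handling of conjugates moved in both directions. Of 14 measured genes of the mercapturate pathway, 4 rose and 6 fell on day 21 (1 to 4 and 1 to 5 with an array left out, the fewest rises without pre-pregnancy replicate 1 and the fewest falls without either array of that stage). Anpep, an aminopeptidase, rose by 0.95 ± 0.125 (adjusted p = 0.00452) and the cysteine conjugate lyase gene Kyat1 by 0.90 ± 0.154 (adjusted p = 0.0111), the latter not without pre-pregnancy replicate 1. The acetyltransferase-like gene Nat8f1 fell by 1.16 (SE 0.174, adjusted p = 0.00729), a call lost when either pre-pregnancy array was removed. Ggt6, of the gamma-glutamyltransferase family, fell by 1.04 on day 21 (adjusted p = 0.00941) and rose by 1.94 ± 0.168 postpartum (adjusted p = 0.00263), both in all 15 alternatives.

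Of 9 measured transporters for conjugates, 3 fell and 0 rose on day 21 and 2 rose and 0 fell postpartum against day 21. Postpartum against pre-pregnancy, 1 rose (Abcc4, 0.83) and 2 fell (Abcc1, -0.585, and the carrier gene Slco1a1, -0.505). Each of these calls was lost with at least 1 array left out. The basolateral pump Abcc3 stood at 10.26 and 10.43 before pregnancy, 8.34 and 7.62 on day 21, and 10.12 and 10.13 postpartum. Its day 21 arrays were far below the rest. It fell by 2.37 on the log2 scale (SE 0.210, adjusted p = 0.00128) and rose by 2.15 ± 0.210 (adjusted p = 0.00381), and both calls held in all 15 alternatives. Abcc4 fell by 0.68 on day 21 (adjusted p = 0.0174), lost without pre-pregnancy replicate 1 or either pregnancy array, and rose by 1.51 ± 0.134 afterwards (adjusted p = 0.00271, held in all 15). Abcc1 was the third that fell on day 21 (0.99, adjusted p = 0.0028), with levels of 4.79 to 5.89, below the median gene throughout. The canalicular pump Abcc2 (-0.06, adjusted p = 0.731) and Abcg2 (-0.44, adjusted p = 0.0999) were not called on day 21.

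A list of Nrf2 targets other than the transferases held 28 genes, of which 25 were measured. It shares Abcc3, Abcc4, Pgd and others with the lists above. On day 21, 1 rose and 4 fell (1 fall with either pre-pregnancy replicate 1 or pregnancy replicate 2 left out); postpartum against day 21, 11 rose and 0 fell (7 to 10 rises with an array left out, the fewest without postpartum replicate 1); postpartum against pre-pregnancy, 9 rose and 0 fell (1 to 10, the fewest without pre-pregnancy replicate 1). The list's median log2 difference was -0.16, 0.43 and 0.32 in that order. Hmox1, heme oxygenase, was the gene that rose on day 21 (0.85 ± 0.117, adjusted p = 0.00528), whereas Ugdh, which makes UDP-glucuronate, fell by 0.74 (adjusted p = 0.0166) and malic enzyme Me1 by 1.25 (adjusted p = 0.0151), beside Abcc3 and Abcc4. The Ugdh and Me1 falls were lost when pre-pregnancy replicate 1 was removed and when pregnancy replicate 2 was, that of Ugdh also without pre-pregnancy replicate 2. Postpartum against day 21, Ugdh rose by 1.82 ± 0.143 (adjusted p = 0.00244), Me1 by 1.70 ± 0.235 (adjusted p = 0.0133, lost without pregnancy replicate 2 or postpartum replicate 1), and the quinone reductase gene Nqo1 by 1.295 ± 0.120 (adjusted p = 0.0032). Nqo1, named after its values were seen, stood at 7.23 and 7.17 before pregnancy, 6.98 and 6.76 on day 21, and 8.08 and 8.25 postpartum, so its postpartum arrays were the high ones, as for Gsta2 and Gstm4.

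**Figure D4:**
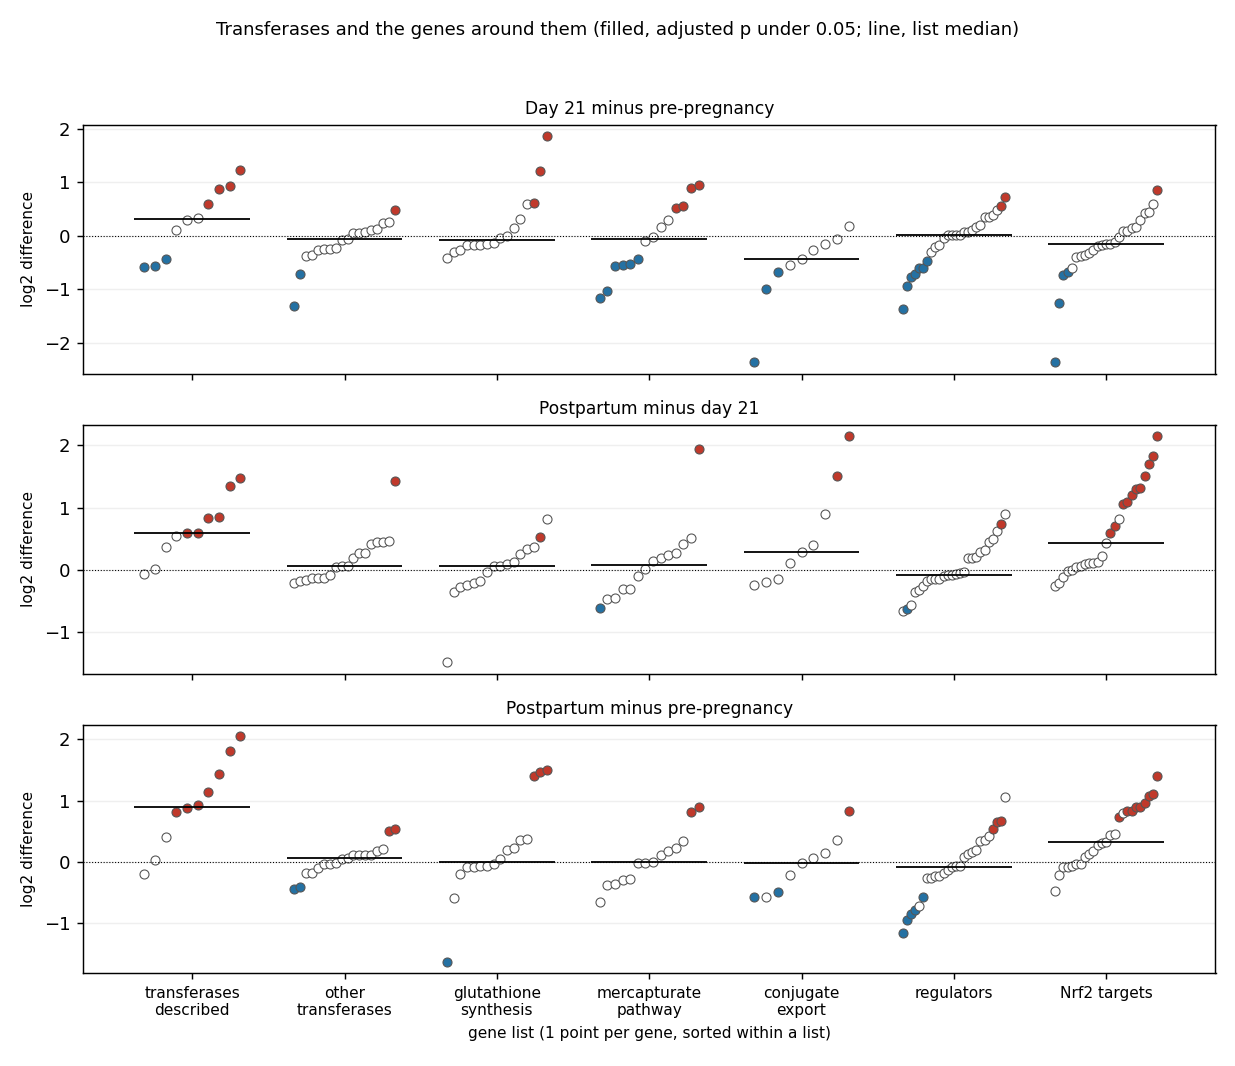
Log2 differences (vertical axes) of each gene in the transferases described and 6 lists of related genes (horizontal axis), in the 3 comparisons from top to bottom; filled red and blue points are called higher and lower, and lines are list medians. In the middle panel 6 of the 10 transferases and 11 of 25 Nrf2 targets are called higher, and 0 of either lower.

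Of 26 measured regulators of transferase genes, 2 rose and 7 fell on day 21 (0 to 3 and 0 to 7 with an array left out, the fewest falls without pre-pregnancy replicate 1). Nfe2l2, which encodes Nrf2, was not called in any comparison (0.02 on day 21, 0.33 from day 21 to postpartum with adjusted p = 0.168, and 0.35 postpartum against pre-pregnancy with adjusted p = 0.117). Mafk, a small Maf partner of Nrf2, rose by 0.73 ± 0.121 on day 21 (adjusted p = 0.0102). Nr1i3, which encodes CAR, was the other that rose (0.56 ± 0.130, adjusted p = 0.0307), a call lost without any 1 array but pregnancy replicate 2 and with only the groups compared. Postpartum against day 21 Nr1i3 fell by 0.62 (adjusted p = 0.0488), a call lost without any 1 array but pregnancy replicate 2, and with a further quantile normalization, median centring or only the groups compared. In that comparison 1 regulator rose and 1 fell (0 to 1 each with an array left out), and postpartum against pre-pregnancy 3 rose and 5 fell (0 to 3 and 0 to 5). On day 21 against pre-pregnancy, the estrogen receptor gene Esr1 fell by 1.36 (SE 0.206, adjusted p = 0.00749), Foxa2 by 0.77 (adjusted p = 0.0119) and Cebpb by 0.61 (adjusted p = 0.0183). The day 21 calls of Mafk, Esr1, Foxa2 and Cebpb were lost without pre-pregnancy replicate 1, and that of Cebpb also without pregnancy replicate 2. Mafg, another small Maf gene named after its values were seen, fell by 0.61 on day 21 (adjusted p = 0.0289). From day 21 to postpartum Mafg rose by 0.74 (adjusted p = 0.0359). Both Mafg calls were lost after a further quantile normalization and without any 1 of the pre-pregnancy or pregnancy arrays. The Mafg rise was also lost with only the groups compared or without postpartum replicate 1. Keap1, the repressor of Nrf2, rose by 0.65 ± 0.111 postpartum against pre-pregnancy (adjusted p = 0.0167), lost without any 1 of the arrays compared.

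The genes whose 6 values, centred on each gene's mean, lay nearest to those of Gstm3 were Cyp39a1 and Cyp8b1, sterol hydroxylases of bile acid synthesis, the kinase gene Camk1d, the noncoding Pvt1, and Mpst, a sulfurtransferase. Their Euclidean distances ran from 0.61 for Cyp39a1 to 0.735 for Mpst, over 6 arrays and 8886 candidate genes. Cyp39a1 stood at 8.2 and 8.21 before pregnancy, 9.14 and 9.24 on day 21, and 10.01 and 9.62 postpartum. Nearest to Gsta4, whose day 21 difference (-0.58) was the lowest on the brightest probe sets with that of Gsta3 (-0.57) within its error, were Nsun2, Cct7, Ccl24, Rrn3 and Baat, at distances of 0.104 to 0.150. Baat, which joins bile acids to amino acids, stood at 10.77 and 10.62, then 10.12 and 9.97, then 10.64 and 10.76, so its day 21 arrays were the low ones.

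Whole liver holds other cell types, and in bulk RNA fewer cells of a type cannot be told apart from less RNA per cell. Of 10 bile duct markers measured, 1 rose (Tspan8) and 1 fell (Prom1, adjusted p = 0.0461, lost with any 1 array left out but pre-pregnancy replicate 1) on day 21, and Prom1 rose postpartum by 2.54 ± 0.235 (adjusted p = 0.0032), its arrays then at 9.37 and 9.34. Of these markers, 2 of 10 were at or above the median gene, and Cftr lay below the lower quartile of all values (3.95). Gstp1 is also known from bile duct cells, and it was higher on day 21 and postpartum alike. The mean of the bile duct markers was 5.42 and 5.41 before pregnancy, 5.41 and 5.35 on day 21, and 5.98 and 5.66 postpartum. Prom1 went from 6.93 and 6.71 on day 21 to 9.37 and 9.34 postpartum. Krt19 went from 5.33 and 4.97 to 7.07 and 5.30. Postpartum against day 21, Prom1 was the only marker called and 9 of the 10 were not. Without overlap, 4 were higher and 1 lower, where 50.1% of all genes did not overlap in either direction. Of 14 endothelial markers, 3 fell and 0 rose on day 21 (11 at an unadjusted p under 0.05, with 10 lower and 1 higher without overlap). Their mean levels were 8.31 and 8.11 before, 7.91 and 7.94 then, and 7.94 and 7.80 postpartum. Of 14 Kupffer cell and macrophage markers, 2 fell and 1 rose on day 21 (5 unadjusted, with 8 lower and 2 higher without overlap). Their mean levels were 8.99 and 8.68 on day 21 against 9 and 9.06 before. Of 12 stellate cell and fibroblast markers, 1 fell. Of 10 neutrophil markers, 2 rose on day 21 (6 at an unadjusted p under 0.05, and 9 with higher, non-overlapping arrays). Postpartum against day 21, 1 fell (6 unadjusted, 10 lower without overlap). The mean levels of the neutrophil markers were 5.52 and 5.57, then 5.99 and 5.87, then 5.50 and 5.58. Over all 18193 genes on day 21, 5637 had an unadjusted p under 0.05, 6119 were higher without overlap and 4729 lower. Postpartum against day 21, 3770 genes had an unadjusted p under 0.05 and 4554 were lower without overlap. The erythroid list's Tfrc, the transferrin receptor, rose postpartum against day 21 (2.00 ± 0.346, adjusted p = 0.0284), and of 10 lymphocyte and 8 erythroid markers 0 were called by limma on day 21 (1 of each list at an unadjusted p under 0.05). Of 10 hepatocyte markers, 1 rose on day 21 (Apob, 0.58 ± 0.0982, adjusted p = 0.0108), 1 postpartum against day 21 (Ass1, 1.06 ± 0.190, adjusted p = 0.031, on a probe set at 6.09 to 7.33) and both postpartum against pre-pregnancy, and their mean levels were 13.3 to 13.5 at every stage. The part of any of these in the transferase values was not tested.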

How the data were processed

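Total RNA from each liver was extracted with Trizol and labelled with biotin for Affymetrix 3' arrays, per the labels' protocols. The authors deposited log2 values for 45101 probe sets per array; the submitters' processing notes name RMA and Affymetrix Power Tools, without version or settings. The log2 scale was inferred from the values (2.69 to 15.05). RMA usually equalises the arrays' distributions, which would hide a change shared by most genes.

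Of the probe sets, 34945 carried 1 symbol in the platform annotation; 932 with several symbols, 9160 unnamed ones and 64 controls were set aside. For each of 18193 genes the brightest probe set was used. A model with 1 mean for each group was fitted by limma 3.58.1 under R 4.3.3 (lmFit, eBayes; 3 residual and 4.8 prior degrees of freedom) to all 6 arrays, with Benjamini-Hochberg adjustment over all genes. Tests were two-sided. SE stands for limma's moderated error of a log2 difference, and folds are its power of 2. Data were simulated with 200 of 18193 genes changed, for day 21 against pre-pregnancy, postpartum against day 21 and postpartum against pre-pregnancy. In that order, changes of 1 on the log2 scale were recovered in 84.2%, 83.1% and 83.8%, and changes of 0.5 in 9.01%, 6.49% and 7.61%. The real data gave 2494, 599 and 1393 calls. Recovery after this adjustment depends on how many genes change, so these percentages need not hold for the tests here.

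The members and lists were chosen with earlier results of these data known. Named were all 10 transferases, up to 4 genes of each pathway list by their day 21 adjusted p with the higher group at or above the median gene, and the 5 nearest genes to each of 2 members; genes outside this rule were chosen after seeing their values. The 15 alternatives were the replicate block, a filter on dim genes, further quantile normalization, median centring, a trended robust variance, averaging a gene's probe sets, probe sets without shared probes, only the 2 groups compared, each array left out and a threshold of 0.1; each probe set by itself, and the alternatives for the lists, were added after seeing the data. Leaving out an array leaves a group of 1, assumed to vary like the others. The 15 are not independent checks. A threshold of 0.1 could lose no call. Leaving out an array of the group not compared gave the same fit as only the 2 groups compared. Averaging probe sets did not change the values of genes with 1 probe set, such as Gstp1 and Gstm4. Promoter windows are RefSeq's, matched by symbol for 9 of the 10 genes (not Gsta4).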

Additional observations from a re-analysis of the deposited data

How the results depend on the processing

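Of the 20 called differences of the 10 transferases, 5 kept their call in all 15 alternatives: Gstm3 and Gstp1 on day 21, Gstm4 postpartum against day 21, and Gstm3 and Gstm4 postpartum against pre-pregnancy. Another 12 lost it only with an array left out, and 3 (Gsta4 and Gstm1 postpartum against day 21, Gstm6 on day 21) elsewhere too; 0 of the 20 changed sign. With an array left out, the members called higher numbered 2 to 4 (main 4), 1 to 4 (6) and 3 to 7 (7) in the 3 comparisons, and those called lower on day 21 numbered 0 to 2 (3); 0 were called lower in the others. Calls over all genes numbered 2494, 599 and 1393, and with an array left out 323 to 1977, 114 to 528 and 73 to 1582; only the 2 groups compared gave 1977, 203 and 1582, and a threshold of 0.1 gave 4066, 1337 and 2489. Of the 10 uncalled differences, 5 were called in some alternative. Uncalled differences that changed sign were those of Gsta2 on day 21 (main 0.10; -0.025 without pregnancy replicate 1, and from -0.175 to 0.375 over the arrays left out), Gstt3 postpartum against day 21 (-0.06 after further quantile normalization, -0.10 without postpartum replicate 1, and from -0.21 to 0.23 over the arrays left out, main 0.01) and Gsta4 postpartum against pre-pregnancy (from -0.09 to 0.13 over the arrays left out, main 0.02); the cause was not tested.

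The replicate numbers are shared between groups. Deviations of same-numbered arrays correlated across genes at 0.028, -0.027 and 0.111, so the numbers were not taken to pair the livers. With the replicate block, 4 members were called higher and 3 lower on day 21, 5 higher postpartum against day 21 and 7 higher postpartum against pre-pregnancy. The Gsta4 rise from day 21 to postpartum was not called, and no other call of the 10 changed. Outside them, only a chosen set of list genes was followed. Among these, the Gstz1 fall postpartum against pre-pregnancy was lost. Postpartum against day 21, the falls of Anpep and Nr1i3 and the rise of Srxn1 were lost. The Anpep rise on day 21 kept its call.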
